A study of Mus musculus with 12 samples.

Results

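The subunits of the SWI/SNF chromatin remodelling complexes and the ATPases of the other remodeller families were followed through muscle differentiation of C2C12 cells, an immortalized mouse myoblast line. The 39 genes were taken by symbol from a list of BAF, PBAF and ncBAF subunits and of ISWI, CHD, INO80 and SRCAP type ATPases, and all 39 were listed among the 16288 genes of the deposited tables. Proliferating cells (GM) grew in medium with 10% fetal bovine serum, and confluent cells were induced in medium with 2% horse serum and 2 ug/ml insulin and harvested after 24 h (DM 24h) or 48 h (DM 48h). At each stage the cells received DMSO, the vehicle, or 50 uM PFI-3, started 12 h before harvest or induction and renewed every 24 h in the differentiation medium. PFI-3 is a small molecule that occupies the bromodomains of BRM and BRG1, the ATPases encoded by Smarca2 and Smarca4, and of PB1, a PBAF subunit encoded by Pbrm1. Each of the 6 groups holds 2 libraries, A and B, which the labels call biological duplicates without saying whether they were separate cultures, so the p-values measure the spread between these libraries. Every group comes from this single line.

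SWI/SNF complexes use the energy of ATP to slide or evict nucleosomes. Each complex holds one ATPase, BRM or BRG1, with core subunits, not all of which are in every class. Further subunits set its class: ARID1 and DPF proteins mark canonical BAF, PBRM1, ARID2, PHF10 and BRD7 mark PBAF, and BRD9 marks ncBAF. In skeletal muscle, BRG1 and the core subunit BAF60c (gene Smarcd3) are known to work with MyoD at muscle gene promoters. ISWI, CHD and INO80 type enzymes are separate families that space nucleosomes, move them or exchange their histones.

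Summed expected counts lay between 12576374 and 13658352 per library. The GM duplicates differed more than the others: across the 10656 genes averaging 50 counts or more, log2 ratios of library B to A had an SD of 0.333 (DMSO) and 0.301 (PFI-3) in GM, against 0.138 to 0.151 in the DM groups. Over the well-counted members it was 0.192 and 0.177 in GM and 0.082 to 0.107 in the DM groups. The 9 myoblast and myotube marker genes summed to 630 and 687 CPM (counts on a common library size) in GM, then 3474 in both libraries at DM 24h, then 19046 and 18911 at DM 48h with DMSO, against 437 and 573, then 1917 and 1920, then 13268 and 12946 with PFI-3. The 16 proliferation markers summed to 5244 and 4995, then 3670 and 3635, then 1183 and 1193 CPM with DMSO, and to 4563 and 5050, then 3173 and 3206, then 2308 and 2301 CPM with PFI-3. Among markers of other lineages, adipocyte genes had at most 3 counts in any library. Sox9 in the bone and cartilage list (783 to 1292 counts), Tubb3 in the neuron list (86 to 927) and Cd68 in the endothelial and blood cell list (11 to 127) were above 20 counts in at least 1 library. RNA was measured in bulk, so a smaller share of cells of one state and less RNA per cell cannot be told apart.

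Most of the 39 genes were well expressed. Levels are the deposited FPKM values, which the authors scaled by transcript length and library size. Chd4, the NuRD ATPase, had the highest levels of all members in every library, at 77.0 to 101 FPKM. Smarcb1, Smarca4 and Smarca5 followed in GM with DMSO at 70.5 and 73.7, 71.0 and 68.4 and 68.3 and 74.5 FPKM in that order, pairs of values that overlap. At the low end, Dpf3 had 0.03 to 0.46 FPKM and Smarca1, the second ISWI ATPase, 0 to 0.09 FPKM. Both missed the low-count filter, and the other 37 were tested. Smarca1 was absent from 6 of the 12 tables and is treated as 0 there.

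Differentiation changed most of the tested members, in both directions. A member is called at an adjusted p under 0.05 in edgeR's quasi-likelihood test, which was fitted to all genes, and log2 fold changes (log2FC) come from counts and are given ± SE. Between GM and DM 24h in DMSO cells 15 of 37 were higher and 8 lower (62.2% of the members, read against 60.6% of the 12545 genes tested). From DM 24h to DM 48h 9 were higher and 16 lower, against a background of 48.1% of all genes called. From GM to DM 48h 13 were higher and 16 lower, against 73.1% of all genes. The shares of members called in the first and the last of these contrasts are near those of all genes. The median log2 fold change of the members was 0.07, -0.18 and -0.08 in these contrasts, beside 0.02, 0.00 and 0.03 over all genes tested, and their median absolute change was 0.27, 0.29 and 0.52, beside 0.44, 0.33 and 0.65. In limma on log2(FPKM + 1) the split for DM 24h to DM 48h was 5 higher and 19 lower.

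The shares of members called under PFI-3 were near or below those of all genes. Called refers to the fit of all 12 libraries unless another setting is named, and other settings also called members that it did not. In GM 1 was higher and 3 lower than with DMSO (background 11.6% of genes called), at DM 24h 2 were higher and 5 lower (background 23.6%), and at DM 48h 6 were higher and 3 lower (background 27.4%). The median absolute change of the members was 0.12, 0.12 and 0.14, beside 0.17, 0.20 and 0.21 over all genes. Other scalings moved the split: with median-ratio size factors DM 24h had 1 higher and 7 lower, and with limma on log2(FPKM + 1) the splits were 0 and 1 in GM, then 3 and 3 at DM 24h, then 11 and 3 at DM 48h. Counts divided by the library total give PFI-3 to DMSO ratios that lie above those scaled by edgeR's TMM factors by 0.10 (log2) in GM, then 0.05 at DM 24h, then 0.09 at DM 48h. FPKM values carry no TMM factor, and for genes whose length estimate varies, such as Smarca2, they differ by that length too. Whether libraries overlap is stated in FPKM, and CPM with the TMM factors is named where it gives another order. The contrasts within a stage share libraries with the DMSO time course, so the values of each are given side by side.

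**Figure D1:**
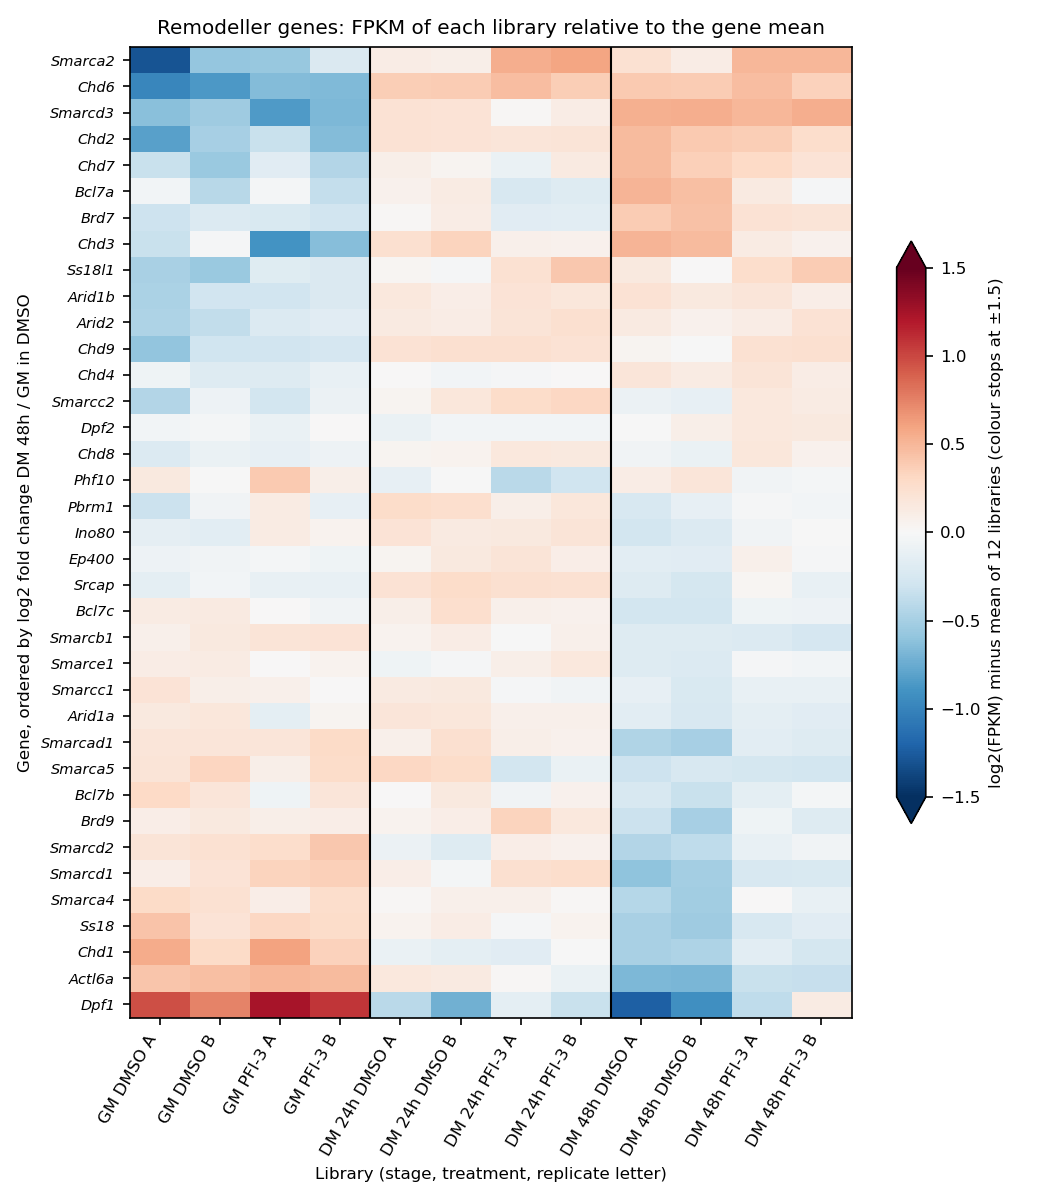
Log2(FPKM) of the 37 tested genes (rows, ordered by their log2 fold change from GM to DM 48h in DMSO cells) in the 12 libraries (columns), after subtracting each gene's mean over the libraries; red is above and blue below the mean. Smarca2 and Chd6 in the top rows are lowest in the 4 GM libraries, and Actl6a and Dpf1 in the bottom rows are highest there.

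The genes of the 2 alternative ATPases moved in opposite directions. Smarca2, which encodes BRM (gene ID 67155, chr19:26605073-26778321 on GRCm38.p6), had 251 and 383 expected counts in GM, then 665 and 679 at DM 24h, then 841 and 778 at DM 48h with DMSO. With PFI-3 there were 431 and 632 expected counts in GM, then 984 and 1065 at DM 24h, then 1037 and 978 at DM 48h. Both PFI-3 libraries were above both DMSO libraries at each of the 3 stages, in counts and in FPKM. In DMSO cells Smarca2 rose 2.19-fold by DM 24h (log2FC 1.13 ± 0.17, adjusted p = 1.0e-04) and 2.75-fold by DM 48h (log2FC 1.46 ± 0.17, adjusted p = 6.2e-06), and the step from DM 24h to DM 48h had a log2 fold change of 0.33 ± 0.16 (adjusted p = 0.11). With PFI-3 it was higher than with DMSO in GM (log2FC 0.67 ± 0.17, adjusted p = 0.027) and at DM 24h (log2FC 0.57 ± 0.16, adjusted p = 0.020), and the DM 48h value missed the threshold (log2FC 0.26 ± 0.15, adjusted p = 0.25).

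The Smarca2 results under PFI-3 depend on the setting. At DM 48h, fits of the DM 48h libraries alone called it higher with PFI-3 (log2 fold change 0.25). The adjusted p in edgeR was 0.0011 without and 9.6e-05 with a replicate block. In GM the call was lost without library A of the DMSO group (log2 fold change 0.44, adjusted p = 0.12 in edgeR), without library B of the PFI-3 group (0.38, adjusted p = 0.14), on the FPKM scale (0.47 and adjusted p = 0.10 in limma with a pseudocount of 1), and in a fit of the GM libraries alone (0.69, adjusted p = 0.34). At DM 24h it was lost without any one of the 4 libraries (log2 fold change 0.51 to 0.63, adjusted p in edgeR 0.071 to 0.13) and on the FPKM scale (0.44, adjusted p = 0.083 in limma).

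Smarca4, which encodes BRG1 (gene ID 20586, chr9:21616106-21704230), was at 71.0 and 68.4 FPKM in GM, then 59.3 and 61.5 at DM 24h, then 43.2 and 40.7 at DM 48h with DMSO. Its PFI-3 values were 62.8 and 69.9 FPKM in GM, then 61.5 and 58.9 at DM 24h, then 58.4 and 54.1 at DM 48h. The groups overlap at DM 24h, and in GM they overlap in FPKM while the PFI-3 libraries are lower in CPM. They separate at DM 48h, where both PFI-3 libraries are above both DMSO libraries. In DMSO cells Smarca4 fell by DM 24h (log2FC -0.26 ± 0.08, adjusted p = 0.011) and again to DM 48h (log2FC -0.46 ± 0.08, adjusted p = 3.8e-04), in all to 0.607 of its GM level (log2FC -0.72 ± 0.08, adjusted p = 3.4e-06). The DM 24h call was lost without library A of either group (adjusted p over the alternatives up to 0.083). With PFI-3 it was higher at DM 48h (log2FC 0.34 ± 0.08, adjusted p = 0.0068), a call lost without library A of the PFI-3 group or library B of the DMSO group (adjusted p over the alternatives up to 0.080). Smarca4 was not called in the other stages, with a log2FC of -0.17 ± 0.08 in GM and one of -0.05 ± 0.08 at DM 24h (adjusted p = 0.17 and 0.67).

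Set side by side on the FPKM scale, Smarca2 made up 6.34% and 10.3% of the summed level of both ATPase genes in GM with DMSO, then 17.6% and 16.9% at DM 24h, then 24.2% and 23.8% at DM 48h. With PFI-3 the shares were 11.2% and 12.6%, 21.9% and 23.2%, and 22.1% and 23.5%. Smarca4 was thus the more abundant ATPase transcript in all 12 libraries, and the PFI-3 libraries had the larger Smarca2 share in GM and at DM 24h but not at DM 48h.

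The length that the authors used for Smarca2 also differed between libraries. It is read here as an average over the 3 transcripts listed for the gene, and 2 of them were matched to GENCODE M21 by their RefSeq names. The long one spans chr19:26605052-26778321 with 33 exons and 5921 bases, and the short one starts inside the gene, spans chr19:26748403-26778321 with 9 exons and has 1962 bases. The average length was 3910 and 3629 bases in GM, then 4233 and 4256 at DM 24h, then 4816 and 4855 at DM 48h with DMSO. The PFI-3 lengths were 4162 and 4662 bases, then 4564 and 4784, then 5034 and 4756. A longer average means that the authors' estimate put more of the fragments on longer transcripts, and it divides the FPKM value, so the Smarca2 rises are larger in counts than in FPKM. Over the stages the length increased by 0.13 on the log2 scale per stage (exact permutation test within treatment, two-sided p = 0.0012, adjusted p = 0.0046 over 15 members whose length varied). The mean length with PFI-3 was above that with DMSO at all 3 stages, by 0.13 on the log2 scale over the stages, with overlap at DM 48h (exact permutation test within stage, two-sided p = 0.028, adjusted p = 0.19, where 0.0093 is the smallest p possible). This measure was chosen after its values were seen, and the third transcript was not matched, so no split between transcripts is given.

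**Figure D2:**
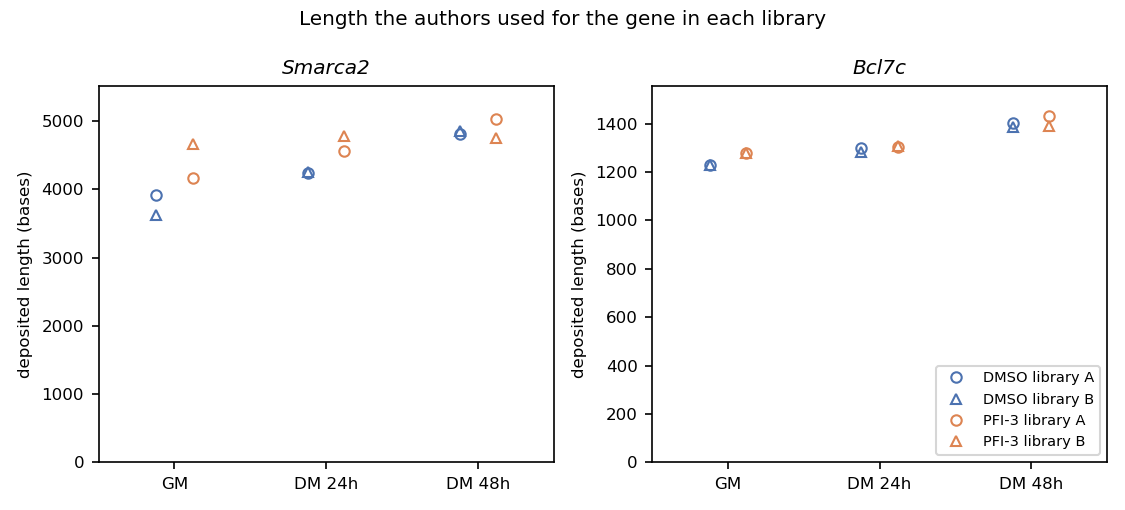
Length in bases that the authors' tables give for Smarca2 (left) and Bcl7c (right) in each library, by stage; circles are library A, triangles library B, blue DMSO and orange PFI-3. The Smarca2 length is 3910 and 3629 bases in GM with DMSO and 4816 and 4855 at DM 48h.

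Sequences before a listed start of 4 members are shown because these ATPase and core subunit genes went opposite ways. Smarca2 and Smarcd3 rose with differentiation, and Smarca4 and Actl6a fell. The sequences are taken from the RefSeq promoter table (GRCm38.p6, gene strand, 5′ to 3′) and stop before any annotated exon. The stretches are chr19:26604910-26605049 (+), chr5:24602013-24602252 (-), chr9:21615919-21616105 (+) and chr3:32708296-32708506 (+). The Smarcd3 stretch lies within the gene (chr5:24592622-24624456), before an internal start, and not upstream of the whole gene. Capitals mark the E-box CANNTG, the general binding motif of basic helix-loop-helix factors such as MyoD.
Smarca2: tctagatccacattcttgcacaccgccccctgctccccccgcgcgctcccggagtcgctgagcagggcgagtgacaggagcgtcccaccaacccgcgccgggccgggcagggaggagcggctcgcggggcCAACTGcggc
Smarcd3: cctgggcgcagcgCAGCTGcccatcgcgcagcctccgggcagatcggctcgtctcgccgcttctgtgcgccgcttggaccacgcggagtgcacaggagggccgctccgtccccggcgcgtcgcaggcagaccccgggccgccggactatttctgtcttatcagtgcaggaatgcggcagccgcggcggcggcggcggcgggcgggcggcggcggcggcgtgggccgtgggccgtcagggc
Smarca4: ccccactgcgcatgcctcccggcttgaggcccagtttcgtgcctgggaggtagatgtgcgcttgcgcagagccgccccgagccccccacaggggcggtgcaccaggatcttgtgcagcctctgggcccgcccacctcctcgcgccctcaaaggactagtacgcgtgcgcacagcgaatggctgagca
Actl6a: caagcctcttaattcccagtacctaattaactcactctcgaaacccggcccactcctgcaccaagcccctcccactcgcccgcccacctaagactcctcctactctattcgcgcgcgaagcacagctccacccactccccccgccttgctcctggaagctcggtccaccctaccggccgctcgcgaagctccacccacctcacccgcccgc
The Smarca2 and Smarcd3 stretches hold 1 E-box each, and that of Smarcd3 has the form CAGCTG. The other 2 stretches hold none, although the whole window of Smarca4 in the table holds the motif in the part not printed.

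Windows of 250 bases before to 50 after a start were present for 31 members (36 windows), and 8 had none: Arid2, Bcl7a, Chd1, Chd2, Chd3, Chd7, Smarce1 and Ss18. Both strands were searched. CANNTG was in 58.3% of member windows and in 72.3% of the 32851 windows of the table. CAGCTG, which is also counted as CANNTG, was in 16.7% and 16.3%. CCAAT was in 27.8% and 37.4%. TTTGAA was in none of the member windows and in 17.9% of all. These are matches of letters and not binding sites.

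Among the core subunits, the Smarcd paralogues moved apart during differentiation, Smarcd3 up and the others down. Smarcd1, Smarcd2 and Smarcd3 encode BAF60a, BAF60b and BAF60c, of which one is built into each complex. Smarcd3 was at 30.8 and 32.8 FPKM in GM, then 55.0 and 54.4 at DM 24h, then 68.5 and 69.2 at DM 48h with DMSO. Under PFI-3 the values were 26.2 and 29.7 FPKM in GM, then 48.0 and 51.4 at DM 24h, then 66.9 and 69.3 at DM 48h, below the DMSO libraries in the first 2 stages. At DM 48h they overlapped the DMSO libraries in FPKM and were below them in CPM. In DMSO cells Smarcd3 rose 1.66-fold by DM 24h (log2FC 0.73 ± 0.07, adjusted p = 4.8e-06) and 2.18-fold by DM 48h (log2FC 1.13 ± 0.07, adjusted p = 3.9e-08), and the later step was called too (log2FC 0.39 ± 0.07, adjusted p = 7.5e-04). It was lower with PFI-3 in GM (log2FC -0.28 ± 0.08, adjusted p = 0.035). The call was lost without library A of either GM group, with DESeq2 and on the FPKM scale in limma. Fits of the GM libraries alone lost it too, with or without the replicate letter as a block (adjusted p in edgeR up to 0.41).

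Smarcd1 was at 27.6 and 29.7 FPKM in GM, then 27.6 and 25.4 at DM 24h, then 16.9 and 18.1 at DM 48h with DMSO. The PFI-3 libraries gave 32.4 and 33.0 FPKM in GM, then 30.6 and 31.1 at DM 24h, then 21.9 and 22.1 at DM 48h, above the DMSO libraries at every stage. It fell from DM 24h to DM 48h (log2FC -0.53 ± 0.07, adjusted p = 4.8e-05) and was higher with PFI-3 at DM 48h (log2FC 0.24 ± 0.07, adjusted p = 0.022). Smarcd2 was at 32.3 and 33.0 FPKM in GM, then 26.6 and 24.6 at DM 24h, then 20.8 and 21.7 at DM 48h with DMSO. Its PFI-3 values were 33.9 and 37.3 FPKM in GM, then 30.3 and 29.6 at DM 24h, then 26.1 and 27.2 at DM 48h, above the DMSO libraries at both DM stages, while in GM they were above in FPKM and overlapped in CPM. Smarcd2 fell by DM 24h (log2FC -0.45 ± 0.07, adjusted p = 1.8e-04) and was higher with PFI-3 at DM 24h (log2FC 0.22 ± 0.07, adjusted p = 0.044) and at DM 48h (log2FC 0.23 ± 0.07, adjusted p = 0.034). These 3 calls under PFI-3 were each lost without any one of the 4 libraries compared (adjusted p over the alternatives up to 0.17, 0.25 and 0.18), and Smarcd2 at DM 24h also with median-ratio size factors.

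As a share of the summed FPKM of the 3 genes, Smarcd3 went from 34.0% and 34.4% in GM through 50.4% and 52.1% at DM 24h to 64.5% and 63.5% at DM 48h with DMSO. With PFI-3 it went from 28.4% and 29.7% through 44.1% and 45.9% to 58.2% and 58.4%. The share was lower with PFI-3 at each of the 3 stages with no overlap of libraries, which is given as a description.

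**Figure D3:**
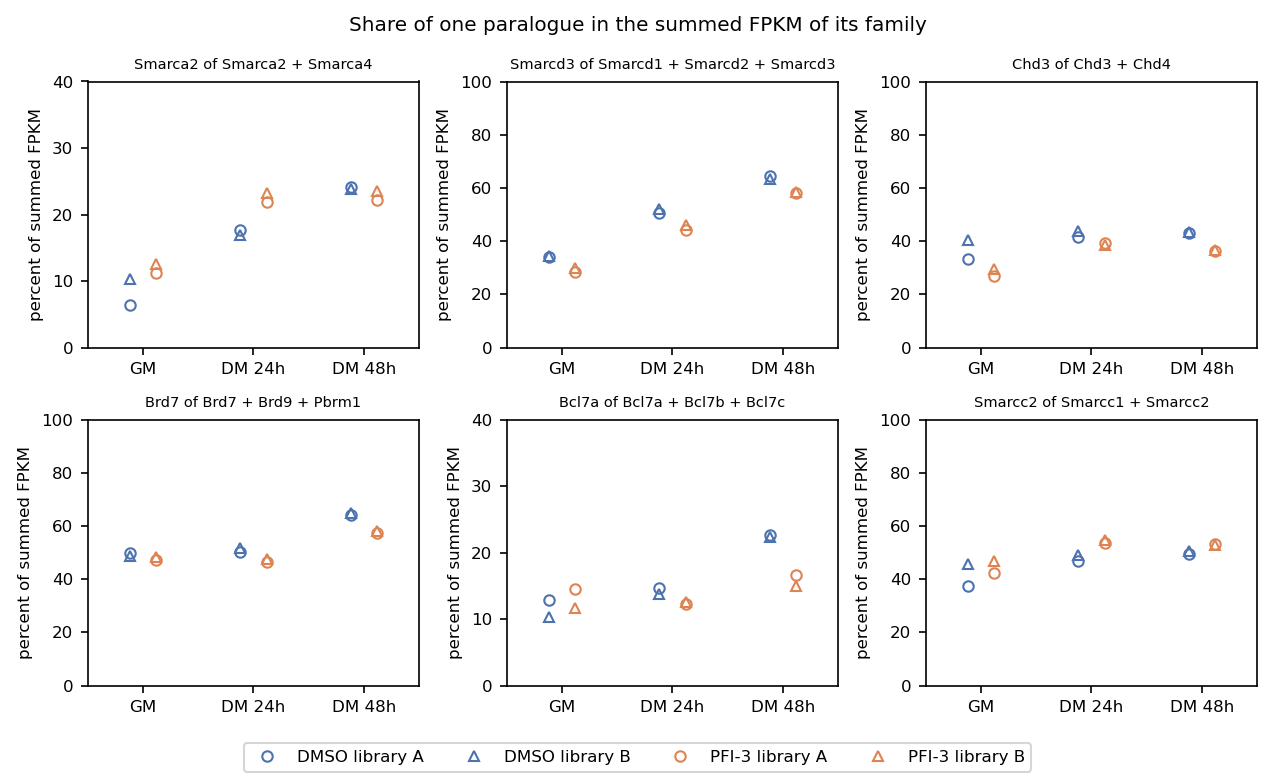
Share (percent) of one gene in the summed FPKM of its paralogues (for Brd7, of the other bromodomain subunits) in each library, by stage; circles are library A, triangles library B, blue DMSO and orange PFI-3, and the vertical axes of Smarca2 and Bcl7a stop at 40%. Smarcd3 lies between 63.5% and 64.5% at DM 48h with DMSO and at 58.2% and 58.4% with PFI-3.

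Actl6a encodes BAF53a, an actin-related subunit. It was at 47.6 and 48.6 FPKM in GM, then 39.9 and 39.0 at DM 24h, then 22.3 and 22.2 at DM 48h with DMSO. The PFI-3 libraries gave 50.3 and 49.4 FPKM in GM, then 36.0 and 33.3 at DM 24h, then 28.4 and 28.1 at DM 48h, below the DMSO libraries at DM 24h and above them at DM 48h. In GM they were above them in FPKM but below them in CPM. In DMSO cells it fell by DM 24h (log2FC -0.34 ± 0.06, adjusted p = 6.8e-04) and further to DM 48h (log2FC -0.76 ± 0.07, adjusted p = 1.9e-06), which left 0.466 of the GM level (log2FC -1.10 ± 0.07, adjusted p = 1.8e-08). PFI-3 lowered it at DM 24h (log2FC -0.24 ± 0.07, adjusted p = 0.021) and raised it at DM 48h (log2FC 0.26 ± 0.07, adjusted p = 0.016). The DM 48h call was lost without any one of the 4 libraries and the DM 24h call without 3 of them, all but library A of the PFI-3 group (adjusted p over the alternatives up to 0.090 and 0.17). Both were also lost with DESeq2.

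The remaining core subunits changed less. Smarcc1, the scaffold BAF155, was at 57.1 and 52.5 FPKM in GM, then 54.1 and 54.6 at DM 24h, then 45.2 and 42.0 at DM 48h with DMSO. Under PFI-3 the values were 52.3 and 49.6 FPKM in GM, then 48.9 and 47.6 at DM 24h, then 45.7 and 45.6 at DM 48h, below the DMSO libraries in GM and at DM 24h. It fell from GM to DM 48h in DMSO cells (log2FC -0.32 ± 0.07, adjusted p = 0.0017) and was lower with PFI-3 at DM 24h (log2FC -0.22 ± 0.07, adjusted p = 0.047), a call lost without any one of the 4 libraries (adjusted p over the alternatives up to 0.21). Its paralogue Smarcc2 (BAF170) was higher at DM 24h than in GM (log2FC 0.31 ± 0.09, adjusted p = 0.013), a call lost without library A of GM or library B of DM 24h (adjusted p over the alternatives up to 0.11). Smarcb1, the core subunit known as a tumour suppressor, and Smarce1 (BAF57) were lower at DM 48h than in GM (log2 fold changes -0.29 and -0.31). Neither was called under PFI-3 in the fit of all libraries. In limma on log2(FPKM + 1) Smarce1 was higher with PFI-3 at DM 24h and DM 48h (0.17 in both, adjusted p = 0.036 and 0.027).

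In the Bcl7 family Bcl7a rose while its paralogues fell. Bcl7a was at 11.7 and 8.97 FPKM in GM, then 12.5 and 13.0 at DM 24h, then 17.0 and 16.4 at DM 48h with DMSO. Its PFI-3 values were 11.7 and 9.35 FPKM in GM, then 10.1 and 10.5 at DM 24h, then 13.2 and 11.8 at DM 48h, overlapping in GM and below the DMSO libraries at both DM stages. It rose from DM 24h to DM 48h (log2FC 0.45 ± 0.13, adjusted p = 0.014) and from GM to DM 48h (log2FC 0.70 ± 0.13, adjusted p = 4.7e-04). At DM 48h it was lower with PFI-3 (log2FC -0.50 ± 0.13, adjusted p = 0.015), and the DM 24h value missed the threshold (log2FC -0.36 ± 0.14, adjusted p = 0.079). The DM 48h difference was not called without any one of 3 libraries, all but library A of the PFI-3 group (adjusted p over the alternatives up to 0.12), and the rise from DM 24h was not called without library A or B at DM 24h or library A at DM 48h (adjusted p up to 0.087). Bcl7b and Bcl7c fell from GM to DM 48h (log2 fold changes -0.52 and -0.20), and the Bcl7c call was lost without library A of GM or either library of DM 48h (adjusted p up to 0.13).

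**Figure D4:**
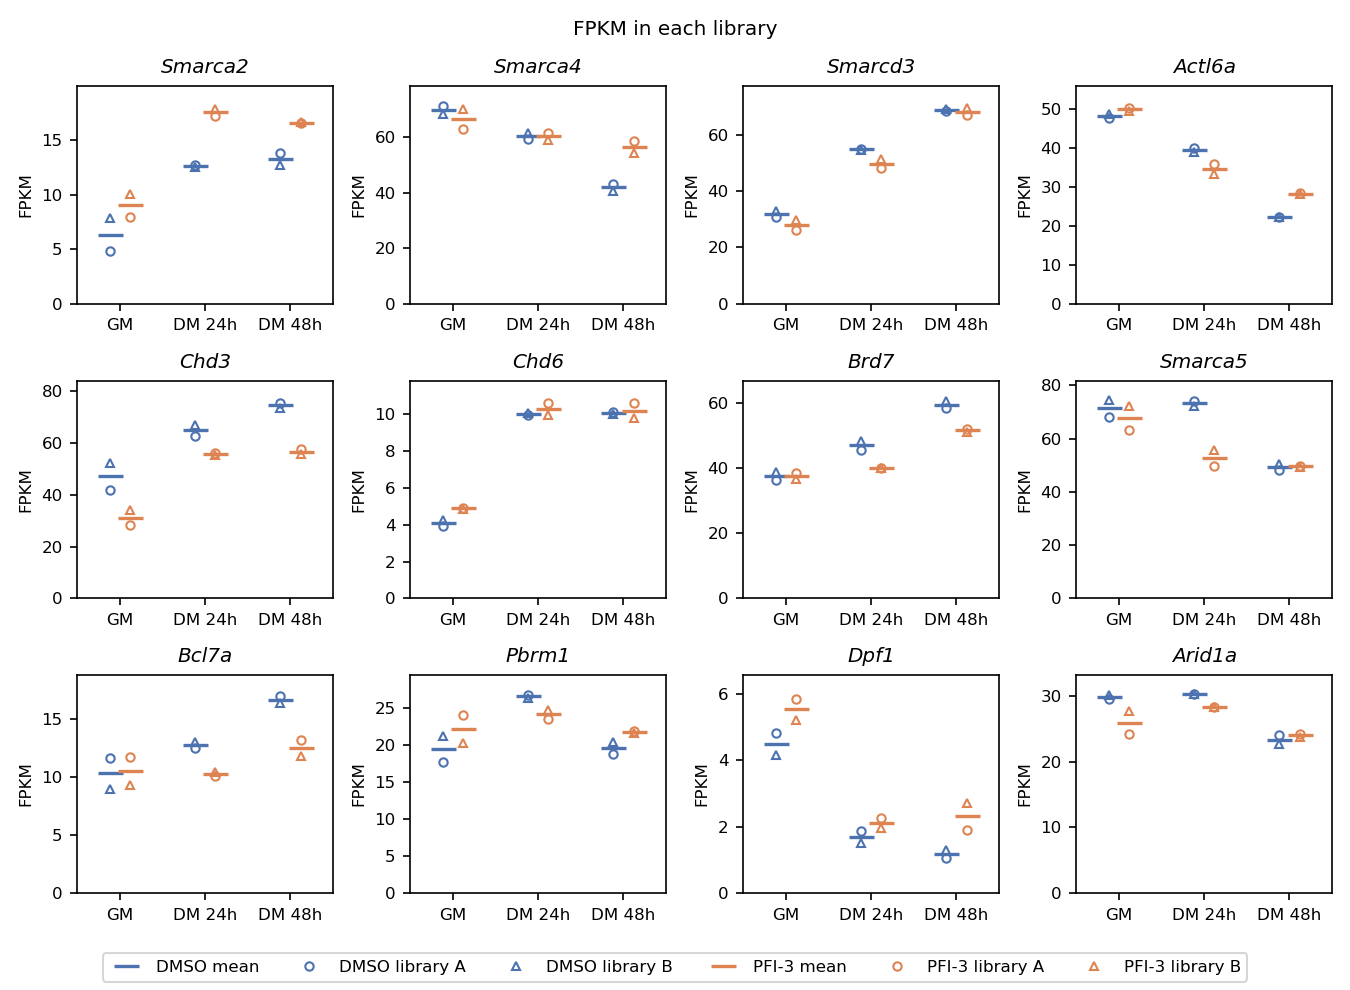
FPKM (vertical axis, from 0) of 12 genes in each library by stage; circles are library A, triangles library B, dashes the mean of both, blue DMSO and orange PFI-3. At DM 48h the PFI-3 libraries lie above the DMSO libraries for Smarca4 and Actl6a and below them for Chd3, Brd7 and Bcl7a.

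Of the canonical BAF subunits, Dpf1 changed most. Dpf1 encodes BAF45b, a PHD finger subunit best known from neurons, and was near the low end of expression here. It had 145 and 125 expected counts in GM, then 52 and 43 at DM 24h, then 30 and 37 at DM 48h with DMSO. With PFI-3 there were 171 and 157 expected counts in GM, then 63 and 55 at DM 24h, then 53 and 75 at DM 48h, above the DMSO libraries at each stage in counts, but overlapping them in CPM in GM. Dpf1 fell to 0.362 of its GM level by DM 24h (log2FC -1.46 ± 0.21, adjusted p = 7.7e-05) and to 0.266 by DM 48h (log2FC -1.91 ± 0.22, adjusted p = 7.0e-06). At DM 48h it was 1.83-fold higher with PFI-3 (log2FC 0.87 ± 0.24, adjusted p = 0.019), a call lost without library A or B of the DMSO group or library B of the PFI-3 group (adjusted p over the alternatives up to 0.17). Its paralogue Dpf2 ranged over 32.6 to 39.1 FPKM in all libraries and was not called between GM and DM 48h (log2FC 0.10 ± 0.07, adjusted p = 0.22).

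The ARID1 subunits, which are mutually exclusive in BAF, went opposite ways. Arid1a was at 29.6 and 30.2 FPKM in GM, then 30.4 and 30.3 at DM 24h, then 24.1 and 22.7 at DM 48h with DMSO. The PFI-3 libraries gave 24.2 and 27.7 FPKM in GM, then 28.4 and 28.4 at DM 24h, then 24.2 and 23.9 at DM 48h, below the DMSO libraries except at DM 48h, where they overlap. It fell from GM to DM 48h (log2FC -0.34 ± 0.07, adjusted p = 9.0e-04) and was lower with PFI-3 in GM (log2FC -0.30 ± 0.07, adjusted p = 0.020). That GM call was lost without library A of the PFI-3 group and on the FPKM scale in limma. It was also lost in fits of the GM libraries alone, with or without the replicate letter as a block (adjusted p in edgeR up to 0.38). Arid1b rose from GM to DM 48h (log2FC 0.57 ± 0.07, adjusted p = 1.0e-05) and was called at no stage under PFI-3.

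Ss18 and Ss18l1 encode SS18 and its paralogue CREST, shared by BAF and ncBAF. Ss18 was at 44.8 and 38.4 FPKM in GM, then 34.6 and 36.0 at DM 24h, then 23.8 and 23.1 at DM 48h with DMSO. Under PFI-3 the values were 41.3 and 40.3 FPKM in GM, then 32.8 and 34.6 at DM 24h, then 28.3 and 29.6 at DM 48h, above the DMSO libraries at DM 48h. In DMSO cells it fell by DM 24h (log2FC -0.29 ± 0.09, adjusted p = 0.015, lost without library A of either group, with an adjusted p over the alternatives up to 0.16) and further to DM 48h (log2FC -0.53 ± 0.09, adjusted p = 5.1e-04), and it was called at no stage under PFI-3. In other settings Ss18 was called higher with PFI-3 at DM 48h. These were limma on both FPKM scales (adjusted p = 0.014 and 0.015) and both fits of the DM 48h libraries alone (0.0041 and 0.0012 in edgeR). Ss18l1, at 1.59 to 3.10 FPKM in all libraries, rose from GM to DM 48h (log2FC 0.61 ± 0.14, adjusted p = 0.0014). Brd9, the bromodomain subunit of ncBAF, fell over the same interval (log2FC -0.52 ± 0.09, adjusted p = 1.9e-04).

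Of the 4 PBAF subunits, 2 rose from GM to DM 48h (73.1% of all genes were called in this contrast). Pbrm1, the third gene whose product PFI-3 binds (gene ID 66923, chr14:31019138-31121592), was at 17.8 and 21.3 FPKM in GM, then 26.9 and 26.5 at DM 24h, then 18.8 and 20.4 at DM 48h with DMSO. The PFI-3 libraries gave 24.1 and 20.4 FPKM in GM, then 23.5 and 24.9 at DM 24h, then 22.0 and 21.6 at DM 48h, overlapping the DMSO libraries in GM, below them at DM 24h and, in FPKM but not in CPM, above them at DM 48h. Pbrm1 rose with DMSO to DM 24h (log2FC 0.40 ± 0.09, adjusted p = 0.0018) and fell again to DM 48h (log2FC -0.38 ± 0.09, adjusted p = 0.0034). It was called at no stage under PFI-3, where the log2 fold changes were 0.09 ± 0.09, -0.19 ± 0.09 and 0.07 ± 0.09 (adjusted p = 0.54, 0.14 and 0.62).

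Brd7 encodes the second bromodomain subunit of PBAF. It was at 36.2 and 38.7 FPKM in GM, then 45.4 and 48.4 at DM 24h, then 58.2 and 60.6 at DM 48h with DMSO. Its PFI-3 values were 38.3 and 36.6 FPKM in GM, then 39.9 and 40.1 at DM 24h, then 51.9 and 51.1 at DM 48h, overlapping in GM (though lower in CPM) and below the DMSO libraries at both DM stages. Brd7 rose by DM 24h (log2FC 0.27 ± 0.06, adjusted p = 0.0027) and by DM 48h (log2FC 0.68 ± 0.06, adjusted p = 9.9e-07), and PFI-3 lowered it at DM 24h (log2FC -0.28 ± 0.06, adjusted p = 0.0085) and at DM 48h (log2FC -0.29 ± 0.06, adjusted p = 0.0044). The DM 48h call held in all 13 alternatives, and the DM 24h call was lost without library A or B of the PFI-3 group or library B of the DMSO group (adjusted p over the alternatives up to 0.098).

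Phf10 encodes BAF45a, the PHD finger subunit of PBAF. It was at 43.2 and 39.0 FPKM in GM, then 35.9 and 38.9 at DM 24h, then 42.2 and 44.2 at DM 48h with DMSO. Under PFI-3 the values were 51.2 and 41.7 FPKM in GM, then 29.6 and 31.7 at DM 24h, then 37.8 and 38.4 at DM 48h, below the DMSO libraries at both DM stages. It was lower with PFI-3 at DM 24h (log2FC -0.34 ± 0.11, adjusted p = 0.039), a call lost without any one of the 4 libraries (adjusted p over the alternatives up to 0.23). Arid2 rose from GM to DM 48h (log2FC 0.53 ± 0.06, adjusted p = 7.2e-06) and was called at no stage under PFI-3.

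The ISWI ATPase gene Smarca5, which encodes SNF2H, had a difference under PFI-3 at DM 24h. It was at 68.3 and 74.5 FPKM in GM, then 74.3 and 72.4 at DM 24h, then 48.2 and 50.5 at DM 48h with DMSO. Its PFI-3 values were 63.4 and 72.3 FPKM in GM, then 49.6 and 55.6 at DM 24h, then 49.8 and 49.4 at DM 48h. In DMSO cells it was not called between GM and DM 24h (log2FC -0.01 ± 0.08, adjusted p = 0.91) and fell from there to DM 48h (log2FC -0.51 ± 0.08, adjusted p = 1.9e-04), whereas the PFI-3 libraries of DM 24h had the lower values of 49.6 and 55.6 FPKM. PFI-3 lowered Smarca5 at DM 24h to 0.693 of the DMSO level (log2FC -0.53 ± 0.08, adjusted p = 5.4e-04), a call kept in all 13 alternatives. The other stages gave a log2FC of -0.17 ± 0.08 in GM and one of -0.08 ± 0.08 at DM 48h (adjusted p = 0.17 and 0.49).

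Of the 8 CHD genes, 6 rose and 1 fell between GM and DM 48h in DMSO cells (73.1% of all genes were called in this contrast), and their median log2 fold change was 0.57, beside 0.03 over all genes. Chd6 was at 3.93 and 4.25 FPKM in GM, then 9.97 and 10.1 at DM 24h, then 10.1 and 10.0 at DM 48h with DMSO. Under PFI-3 the values were 4.92 and 4.87 FPKM in GM, then 10.6 and 9.95 at DM 24h, then 10.6 and 9.78 at DM 48h. In DMSO cells it rose 2.37-fold by DM 24h (log2FC 1.24 ± 0.07, adjusted p = 2.6e-08), the largest rise among the members in that contrast, and was not called after that (log2FC 0.07 ± 0.07, adjusted p = 0.43).

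Chd2, which acts at active promoters, was at 4.03 and 5.01 FPKM in GM, then 8.23 and 8.13 at DM 24h, then 9.84 and 9.26 at DM 48h with DMSO. Chd2 with PFI-3 was at 5.61 and 4.51 FPKM in GM, then 8.05 and 8.07 at DM 24h, then 9.10 and 8.52 at DM 48h. It rose by DM 24h (log2FC 0.81 ± 0.10, adjusted p = 3.2e-05) and by DM 48h (log2FC 1.09 ± 0.10, adjusted p = 1.0e-06), and its later step (log2FC 0.29 ± 0.10, adjusted p = 0.031) was not called without any one of the 4 libraries or on the FPKM scale (adjusted p up to 0.19). Chd7, the gene mutated in CHARGE syndrome, was at 4.66 and 3.98 FPKM in GM, then 6.22 and 6.03 at DM 24h, then 8.19 and 7.53 at DM 48h with DMSO. Chd7 with PFI-3 was at 5.24 and 4.33 FPKM in GM, then 5.47 and 6.46 at DM 24h, then 7.22 and 6.76 at DM 48h. It rose by DM 24h (log2FC 0.44 ± 0.12, adjusted p = 0.0072) and again to DM 48h (log2FC 0.43 ± 0.12, adjusted p = 0.0090). The first of these steps was not called without library B of GM, and the second not without library A of DM 48h or library B of DM 24h (adjusted p over the alternatives up to 0.052 and 0.073). Chd9 was at 5.34 and 6.53 FPKM in GM, then 9.31 and 9.48 at DM 24h, then 8.23 and 8.0 at DM 48h with DMSO. Chd9 with PFI-3 was at 6.56 and 6.72 FPKM in GM, then 9.49 and 9.33 at DM 24h, then 9.38 and 9.49 at DM 48h. It rose by DM 24h in DMSO cells (log2FC 0.62 ± 0.07, adjusted p = 1.8e-05). None of these 4 genes was called under PFI-3 in the fit of all libraries. The fit of the DM 48h libraries alone called Chd2 and Chd7 lower and Chd9 higher with PFI-3 (-0.20, -0.25 and 0.13). Their adjusted p in edgeR was 0.0054, 8.0e-04 and 0.048.

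Chd1 fell instead. Chd1, which works with transcribing polymerase, was at 16.1 and 13.3 FPKM in GM, then 10.2 and 9.84 at DM 24h, then 7.79 and 7.91 at DM 48h with DMSO. Its PFI-3 values were 16.5 and 13.8 FPKM in GM, then 9.70 and 10.8 at DM 24h, then 9.74 and 9.06 at DM 48h, and no stage was called between treatments. In DMSO cells it fell by DM 24h (log2FC -0.61 ± 0.11, adjusted p = 6.1e-04) and by DM 48h (log2FC -0.90 ± 0.12, adjusted p = 1.8e-05). Chd8 was not called in any of the 6 contrasts of 2 groups.

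Chd3 and Chd4 encode the alternative ATPases of the NuRD complex. Chd3 was at 42.0 and 52.4 FPKM in GM, then 62.7 and 66.9 at DM 24h, then 75.5 and 73.6 at DM 48h with DMSO. The PFI-3 libraries gave 28.4 and 33.9 FPKM in GM, then 56.0 and 55.5 at DM 24h, then 57.6 and 55.6 at DM 48h, below the DMSO libraries at all 3 stages without overlap. In DMSO cells Chd3 rose by DM 24h (log2FC 0.41 ± 0.09, adjusted p = 0.0023) and by DM 48h (log2FC 0.68 ± 0.09, adjusted p = 3.2e-05). PFI-3 lowered it to 0.618 of the DMSO level in GM (log2FC -0.69 ± 0.09, adjusted p = 9.7e-04) and to 0.715 at DM 48h (log2FC -0.48 ± 0.09, adjusted p = 0.0023), and the DM 24h value missed the threshold (log2FC -0.27 ± 0.09, adjusted p = 0.058). The DM 48h call held in all 13 alternatives, and that in GM in 12, being lost in the fit of the GM libraries alone (adjusted p = 0.18 in edgeR). The DM 24h difference was called with median-ratio size factors (adjusted p = 0.039 in edgeR), DESeq2 (0.024) and a replicate block (0.046 in edgeR). Fits of the DM 24h libraries alone called it too. Chd4 rose from GM to DM 48h (log2FC 0.28 ± 0.07, adjusted p = 0.0037) and was called at no stage under PFI-3. The share of Chd3 in the summed FPKM of both genes was 43.1% and 43.4% at DM 48h with DMSO and 36.4% and 36.8% with PFI-3.

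Ino80, Ep400 and Srcap encode the large ATPases of the complexes that exchange histone H2A variants. Ino80 and Srcap rose to DM 24h (log2 fold changes 0.27 and 0.29), and all 3 fell from there to DM 48h (-0.35, -0.20 and -0.41). The Ino80 rise was lost when the 4 libraries were fitted alone with a replicate block (adjusted p = 0.055 in edgeR). The Ep400 call was lost without library B of DM 24h or either library of DM 48h (adjusted p up to 0.22). None was called between GM and DM 48h, and none was called under PFI-3. Smarcad1, an ATPase that acts during replication and repair, was at 15.0 and 15.1 FPKM in GM, then 13.9 and 15.7 at DM 24h, then 9.64 and 9.40 at DM 48h with DMSO. Under PFI-3 the values were 14.9 and 16.1 FPKM in GM, then 14.0 and 13.8 at DM 24h, then 11.9 and 11.6 at DM 48h, above the DMSO libraries at DM 48h. In DMSO cells it fell to DM 48h (log2FC -0.47 ± 0.07, adjusted p = 2.5e-04). At DM 48h it was higher with PFI-3 (log2FC 0.22 ± 0.08, adjusted p = 0.048), a call lost in 9 of 13 alternatives, among them the leaving out of any one of the 4 libraries (adjusted p over the alternatives up to 0.22).

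**Figure D5:**
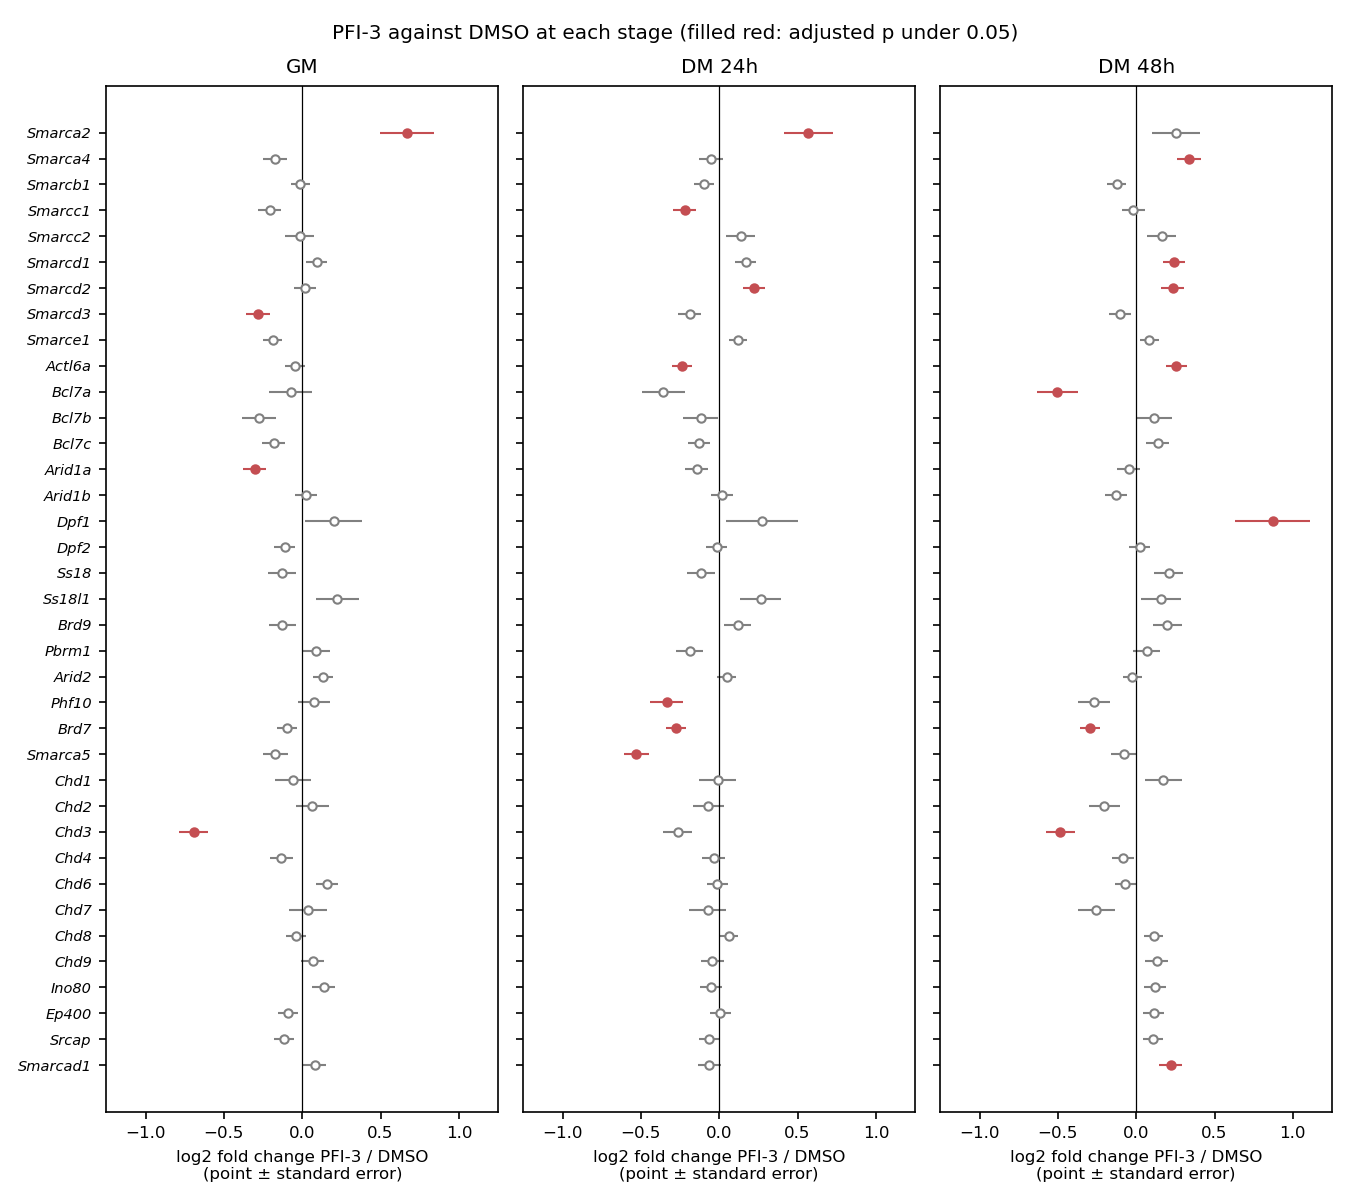
Log2 fold change of PFI-3 against DMSO (horizontal axis, point ± standard error, n = 2 libraries a group) for the 37 tested genes in a panel per stage; filled red points have an adjusted p under 0.05. Of these, 4 are in GM, then 7 at DM 24h, then 9 at DM 48h, and Smarca2 is the highest point of the first 2 panels.

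Each of the 6 members that were higher with PFI-3 at DM 48h (Dpf1, Smarca4, Actl6a, Smarcd1, Smarcd2 and Smarcad1) was lower at DM 48h than in GM in DMSO cells, and each of the 3 that were lower (Bcl7a, Chd3 and Brd7) was higher. Both contrasts use the same DMSO libraries of DM 48h, so these directions are not independent. The 16 proliferation markers moved alongside: all 16 were higher with PFI-3 at DM 48h (median log2 fold change 0.95), and their summed level was 2308 and 2301 CPM against 1183 and 1193. Of the 9 muscle markers 6 were lower (median -0.57). The part of either in the members' differences was not tested.

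In GM the calls under PFI-3 rest on a spread estimated over all 6 groups. Fitted to the 4 GM libraries alone, edgeR called none of the members (3 at an unadjusted p under 0.05) and 32 genes in all, against 1456 in the fit of all libraries. DESeq2 called 3 members in GM among 1118 genes in all, and limma on log2(FPKM + 1) called 1 among 1404.

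The PFI-3 effect itself was compared between stages. Cells of a later stage had also been under PFI-3 for longer, so stage and length of exposure cannot be told apart. Between DM 24h and GM no member had a different effect by edgeR (5 at an unadjusted p under 0.05, none by DESeq2 or limma), with 3.37% of all genes called. Between DM 48h and GM 2 members differed (background 14.5%): Smarca4 (difference of log2 fold changes 0.51 ± 0.11, adjusted p = 0.0086) and Actl6a (0.30 ± 0.09, adjusted p = 0.049). Between DM 48h and DM 24h 3 members differed (background 12.1%): Actl6a (0.49 ± 0.10, adjusted p = 0.0053), Smarca5 (0.45 ± 0.11, adjusted p = 0.021) and Smarca4 (0.39 ± 0.11, adjusted p = 0.038). Actl6a between the DM stages was called in all 17 alternatives. Smarca2 between the DM stages was called only in fits of those libraries alone (-0.32). The adjusted p in edgeR was 0.0040 without and 0.0023 with a replicate block. Smarca4 between DM 48h and GM was lost without PFI-3 library A or DMSO library B of DM 48h, and between the DM stages without any one of the 8 libraries. The DM 48h against GM call of Actl6a was lost without any one of 7 libraries (all but DMSO library B of GM), and that of Smarca5 between the DM stages without any one of 7 (all but PFI-3 library B of DM 24h).

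A further list, called partners here, gave a wider range of changes. It holds other subunits of these complexes and 12 other SNF2 family ATPases, which are not counted as subunits of them. The list holds 65 genes, of which 62 were tested. In DMSO cells 13 rose and 24 fell by DM 24h, 5 rose and 28 fell from DM 24h to DM 48h, and 16 rose and 29 fell from GM to DM 48h (median log2 fold changes -0.10, -0.19 and -0.23, beside 0.02, 0.00 and 0.03 over all genes). All genes were called at 60.6%, 48.1% and 73.1% in these contrasts, and the shares of partners are near these. Of 13 INO80 partners 2 were higher and 8 lower by DM 24h, among them Ruvbl2, an AAA+ ATPase of the complex (-1.14 ± 0.09, adjusted p = 4.7e-07). Of the 12 other SNF2 family ATPases, 3 rose and 8 fell from GM to DM 48h. Hells, which remodels nucleosomes for DNA methylation, fell most (-3.32 ± 0.10, adjusted p = 4.9e-11), followed by Ercc6l, a mitotic translocase (-2.60 ± 0.10, adjusted p = 2.1e-10), and Rad54l, a recombination factor (-2.56 ± 0.12, adjusted p = 2.2e-09).

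Among partners that rose were Cecr2, an ISWI partner (2.74 ± 0.96 from GM to DM 48h, adjusted p = 0.022, lost without library B of either group, with DESeq2 and in limma, with an adjusted p up to 0.18), the ncBAF scaffold Bicra (1.03 ± 0.09, adjusted p = 6.1e-07) and the ISWI partner Rsf1 (0.95 ± 0.09, adjusted p = 8.0e-07). By DM 24h the largest rises were those of Atrx (0.98 ± 0.07), Baz2b (0.85 ± 0.08) and Rsf1 (0.71 ± 0.09), and Hells (-1.02 ± 0.09) and Baz1a (-0.97 ± 0.11) fell beside Ruvbl2. From DM 24h to DM 48h Bicral (0.66 ± 0.09), Bicra (0.36 ± 0.09) and Baz2a (0.27 ± 0.07) rose most, and Hells (-2.30 ± 0.11), Ercc6l (-1.81 ± 0.10) and Rad54l (-1.72 ± 0.13) fell most. In that interval the Bicra call was lost without library A of DM 48h and the Baz2a call without library A of DM 24h (adjusted p up to 0.083 and 0.052).

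With PFI-3, 0 partners were higher and 6 lower in GM, 1 was higher and 7 lower at DM 24h, and 13 were higher and 3 lower at DM 48h, against 11.6%, 23.6% and 27.4% of all genes called. In GM the largest falls by edgeR were Cdk2ap1, a NuRD subunit (-0.55 ± 0.07), Znhit1, an SRCAP subunit (-0.42 ± 0.09), and Pole3 (-0.36 ± 0.10). All 3 calls were lost in the fit of the GM libraries alone, that of Znhit1 also without library B of the PFI-3 group and that of Pole3 without library A of either group or library B of the PFI-3 group (adjusted p up to 0.27 and 0.35). At DM 24h they were Chd1l (-0.46 ± 0.09), Cdk2ap1 (-0.33 ± 0.07) and Actr8 (-0.25 ± 0.08), and Baz2a was the one that was higher (0.27 ± 0.07). The Actr8 and Baz2a calls were lost without any one of the 4 libraries (adjusted p up to 0.21 and 0.11). At DM 48h Hells (1.70 ± 0.11), Rad54l (1.52 ± 0.13) and Ercc6l (1.20 ± 0.10), all from the other SNF2 family ATPases, were higher. Bicral (-0.64 ± 0.09), Ino80c (-0.45 ± 0.11) and Morf4l1 (-0.17 ± 0.06) were lower. The Ino80c call was lost without library A of either group, and the Morf4l1 call without any one of the 4 libraries (adjusted p up to 0.078 and 0.23). The PFI-3 effect on 12 partners was higher and on 1 lower at DM 48h than in GM, against 14.5% of all genes called. Hells (1.56 ± 0.14), Rad54l (1.38 ± 0.17) and Ercc6l (1.12 ± 0.13) led, and Bicral was the lower one (-0.76 ± 0.13). Between the DM stages 9 were higher and 1 lower, against 12.1% of all genes called. Hells, Rad54l and Ercc6l again led (1.86 ± 0.14, 1.23 ± 0.17 and 1.30 ± 0.13), and Bicral was at -0.58 ± 0.13. That last call was lost without library A of 3 of the 4 groups (all but DM 48h PFI-3) or library B of DM 48h PFI-3 (adjusted p up to 0.063).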

How the data were processed

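RNA sequencing was run on 12 libraries of C2C12 cells, and one table per library was deposited. The submitters' processing notes name HISAT, StringTie, Cufflinks, Bowtie, RSEM and DESeq2 and the build mm10, with no role or version for each. Per the file headers each table gives expected counts per gene, which the authors had not normalized, FPKM values that the authors scaled by length and library size, and the length used. A gene missing from a table was taken as 0. Whether counting used strand is not given in the sources used here.

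Expected counts were rounded and tested with edgeR 4.0.16 (R 4.3.3; quasi-likelihood, TMM scaling, low-count filter keeping 12545 of 16288 genes). All 12 libraries entered a model of 6 groups, with Benjamini-Hochberg adjustment over all genes tested and a threshold of 0.05. The 9 contrasts are stages within DMSO, PFI-3 against DMSO within a stage, and differences of the PFI-3 effect. Alternatives were median-ratio (DESeq2) size factors, other filters, DESeq2 1.42.0, limma 3.58.1 on log2(FPKM + 1) and log2(FPKM + 0.1), fits of the libraries compared only, the replicate letter as a block, and leaving out each library. The edgeR test was checked on simulated counts. Lengths were tested by exact permutation over libraries. Depth was 12576374 to 13658352 expected counts per library.

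Library-by-library values are printed for Smarca2, Smarca4, Pbrm1 and, per contrast, the up to 5 called members with the largest rise and the largest fall. Of the partners, up to 3 in each direction are named. The members and lists were chosen with earlier results of these data known.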

Additional observations from a re-analysis of the deposited data

Results flagged for a closer look

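The effect of PFI-3 (log2 fold change against DMSO) differed between stages for 3 members by an interaction contrast in edgeR. Time under PFI-3 also grew from stage to stage, so stage and length of exposure cannot be told apart. For Smarca4, the BRG1 gene, the effect went from -0.17 in GM through -0.05 at DM 24h to 0.34 at DM 48h. It was higher at DM 48h than in GM by 0.51 (adjusted p = 0.0086) and than at DM 24h by 0.39 (adjusted p = 0.038). The first of these was not called without PFI-3 library A or DMSO library B of DM 48h (adjusted p at most 0.053), and the second not without any one of the 8 libraries compared (at most 0.16).

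For Actl6a, the BAF53a gene, the effect was -0.05, -0.24 and 0.26 in the same order. It was higher at DM 48h than in GM by 0.30 (adjusted p = 0.049), which was lost in 14 of 17 alternatives, 7 of them leaving out a library (all 8 but library B of the GM DMSO group; adjusted p at most 0.17). It was higher than at DM 24h by 0.49 (adjusted p = 0.0053), which was kept in all 17 (adjusted p at most 0.035).

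For Smarca5, the SNF2H gene, the effect went from -0.53 at DM 24h to -0.08 at DM 48h, a difference of 0.45 (adjusted p = 0.021). It was lost without any one of 7 of the 8 libraries compared, all but PFI-3 library B of DM 24h (adjusted p at most 0.11). Depth, replicate spread and proliferation markers are given in the report, and their part in these differences was not tested. With 2 libraries a group, no test for a single outlying library was made.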

How the results depend on the processing

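Of the 39 named partner values, 28 were kept in every alternative and none changed sign. No called member changed sign in any alternative: the 102 called values had 1346 alternatives, of which 1138 stayed past the threshold. Of the calls, 15 of 23, 13 of 25 and 28 of 29 in the 3 DMSO contrasts (DM 24h against GM, DM 48h against DM 24h, DM 48h against GM) were kept in every alternative. Under PFI-3 these were 0 of 4 in GM, then 1 of 7 at DM 24h (Smarca5) and 2 of 9 at DM 48h (Brd7 and Chd3). Leaving out one library gave 13 to 17 members for DM 48h against DM 24h in DMSO (25 with all libraries), 2 to 10 for PFI-3 in GM (4), then 1 to 2 at DM 24h (7), then 2 to 4 at DM 48h (9). For the difference of PFI-3 effects it gave 0 to 2 between DM 24h and GM (0), 0 to 9 between DM 48h and GM (2) and 1 to 2 between DM 48h and DM 24h (3). In GM the 10 came without library B of the DMSO group. The lone library left in a group was assumed to vary like the others. The 0 calls between DM 48h and GM came without PFI-3 library A or DMSO library B of DM 48h, with 9 and 5 members at an unadjusted p under 0.05 in edgeR.

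A fit of only the libraries compared gave 0 members for PFI-3 in GM (3 at an unadjusted p under 0.05), then 15 at DM 24h, then 18 at DM 48h, and 1 and 11 for the difference of effects between DM 48h and GM and between the DM stages. Over all genes it called 32, 5583, 5688, 1037 and 4154 in these contrasts. The fit of all 12 libraries called 1456, 2966, 3438, 1824 and 1517. DESeq2 gave 5 for PFI-3 at DM 48h and 1 for the difference between DM 48h and GM (2581 and 1452 genes in all). Median-ratio size factors, no filter and a filter at a mean of 10 counts each gave 1 for that difference (1809, 1755 and 1821 genes in all). On log2(FPKM + 1) limma gave 1 for PFI-3 in GM, 14 at DM 48h, and 4 and 5 for the differences between DM 48h and GM and between the DM stages. Genes called in all were then 1404, 3910, 2142 and 1707. On log2(FPKM + 0.1) limma gave 1 in GM and 4 for the difference between DM 48h and GM (1397 and 1833 genes in all). The cause of these shifts was not tested, except that leaving out a library leaves fewer samples.

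The replicate letters pair no libraries by any label. Same-letter deviations correlated at 0.504 between the GM groups and at -0.044 to 0.060 between all others. With the letter as a replicate block the counts of called members were 4, 8 and 8 for PFI-3 at the 3 stages, and 1 for the difference of effects between DM 48h and GM. Over all genes 1489, 3040, 3452 and 1832 were called there. This block is common to all stages, so it cannot fully take up a shift between letters that is confined to GM. A replicate block with only the libraries compared gave 2, 15 and 23 for PFI-3 at the 3 stages, and 2, 4 and 11 for the differences between DM 24h and GM, DM 48h and GM, and the DM stages. Over all genes that fit called 741, 5719 and 6034, and 763, 2254 and 4336, in the same order. With 2 libraries a group, a log2 change of about 0.2 to 0.3 in a well-counted member was near the limit of what was called.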

Other observations

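Bcl7c, a core SWI/SNF subunit, also had a gene length that differed between libraries. The tables list 2 transcripts, matched in GENCODE M21 to 1132 bases (chr7:127704978-127708933, 6 exons) and 6235 bases (chr7:127661456-127708785, 5 exons). The length was 1228 and 1230 bases in GM, then 1299 and 1281 at DM 24h, then 1404 and 1385 at DM 48h with DMSO, nearer to the short transcript at every stage. With PFI-3 it was 1279 and 1280, then 1304 and 1307, then 1430 and 1391 bases. The increase over the stages was 0.08 on the log2 scale per stage (exact permutation test within treatment, two-sided p = 0.00025, the smallest possible, adjusted p = 0.0012 over 15 members). For PFI-3 against DMSO the exact permutation p within stage was 0.037 (adjusted p = 0.19). Of the 15 members, 8 had a change of length with stage at an adjusted p under 0.05 and none with PFI-3. These counts cannot be compared, because the PFI-3 test could hardly call a member. Dpf2 reached the smallest p of the exact permutation test within stage (0.0093), and its adjusted p was still 0.14.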
